A study of Homo sapiens with 6 samples.

Results

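The genes described here are the 7 protein-coding genes of the human mitochondrial genome that encode subunits of respiratory complex I, namely MT-ND1, MT-ND2, MT-ND3, MT-ND4, MT-ND4L, MT-ND5 and MT-ND6. They were taken by name from a table of 24846 genes, and all 7 were present. The RNA came from A549, an established human lung adenocarcinoma cell line labelled wild type. Cells of the ACC group (3 libraries) were grown for 8 passages in calcium-depleted DMEM/F12 with 2 mM elemental calcium supplied as amorphous calcium carbonate (ACC), a non-crystalline form of calcium carbonate. Cells of the control group (3 libraries) were grown for 8 passages in regular DMEM/F12, which contains calcium chloride at a lower concentration. The ACC suspensions also brought carbonate and the stabilizer sodium tripolyphosphate, and the paper reports that they raised the pH of acidified medium. Effects of the calcium source, its amount, the carbonate, the stabilizer and any change of pH thus cannot be told apart. Both media held fetal bovine serum and antibiotics. The sources do not say whether each culture was passaged separately from the start. The p-values here therefore speak only for these libraries, whose spread may be technical. All libraries come from 1 cell line.

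Complex I is the NADH dehydrogenase of the inner mitochondrial membrane. It passes electrons from NADH to ubiquinone and pumps protons across the membrane. The nuclear genome encodes most of its subunits, including those that hold the redox centres, whereas the MT-ND genes encode the hydrophobic core of the membrane arm. MT-ND1 lies at the ubiquinone site, MT-ND2, MT-ND4 and MT-ND5 are the antiporter-like proton-pumping subunits, and MT-ND3, MT-ND4L and MT-ND6 sit between them. Mitochondrial DNA is transcribed into long RNAs from which tRNAs are cut out, and this releases the mRNAs. The released mRNAs receive short poly(A) tails, and MT-ND6 is known as the mRNA of the set that lacks a tail of this kind. MT-ND6 is also the only mRNA of the mitochondrial genome read from the opposite strand.

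All 7 genes lie on the mitochondrial chromosome of GRCh38, which has 16569 bases, and each is a single exon in the annotation. On the forward strand are MT-ND1 at chrM:3307-4262, MT-ND2 at chrM:4470-5511, MT-ND3 at chrM:10059-10404, MT-ND4L at chrM:10470-10766, MT-ND4 at chrM:10760-12137 and MT-ND5 at chrM:12337-14148. MT-ND6 lies on the reverse strand at chrM:14149-14673. The ends of the genes are shown because the members differ there and the results are later set against this difference. Each line gives the last 12 bases of the gene and the next 12 bases of the reference genome, 5′ to 3′ on the coding strand, with the stop codon bases that the gene itself encodes in capitals.
MT-ND1: ccctcaaaccTAagaaatatgtct
MT-ND2: taataatcttaTagaaatttaggt
MT-ND3: actgaaccgaaTtggtatatagtt
MT-ND4: ggttttcctctTgtaaatatagtt
MT-ND4L: ctccaatgcTAAaactaatcgtcc
MT-ND5: ctaatcacaTAAcctattcccccg
MT-ND6: cgggggaatAGGttatgtgattag
MT-ND1, MT-ND2, MT-ND3 and MT-ND4 end with 1 or 2 bases of an unfinished stop codon, which the poly(A) tail completes, and a tRNA gene begins at the next base. MT-ND4L and MT-ND5 encode a whole stop codon, and the last codon of MT-ND6, AGG, is annotated as one. MT-ND5 and MT-ND6 end at adjacent bases on opposite strands, so their windows are reverse complements of each other.

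MT-ND4L and MT-ND4 are translated from a shared mRNA and overlap by 7 bases, shown in capitals in the window chrM:10750-10776 because reads over it match both genes. Whether such reads were counted for either gene was not examined.
Overlap of MT-ND4L and MT-ND4: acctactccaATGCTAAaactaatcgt

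The libraries held from 21771645 to 24805486 reads in genes, recovered from the deposited normalized counts (reads per gene divided by a size factor for each library). The MT-ND genes took 1.45%, 1.91% and 1.66% of these reads in ACC cultures 1, 2 and 3, and 1.11%, 1.10% and 1.16% in control cultures 1, 2 and 3, that is, from 252005 to 438768 reads per library. Over the genes averaging 100 normalized counts or more, the correlation of log2 values was at least 0.996 between libraries of a group. It was at least 0.949 between any of the 6. The ACC libraries differed in the level of the members, as given further on. The epithelial markers KRT8 and KRT18 lay between 32636 and 81754 normalized counts in all libraries, while the leukocyte gene PTPRC lay between 0 and 0.960 and CD3E at 0. Summed over whole lists, the 4 epithelial markers lay between 99584 and 104515 normalized counts with ACC and between 127622 and 128815 in control. This sum is nearly all KRT8 and KRT18, which were lower with ACC, whereas KRT19 (from 2138 to 2243 with ACC, from 1351 to 1453 in control) and EPCAM (from 390.1 to 426 and from 240.3 to 282) were higher. The 3 leukocyte markers, nearly all of their sum ITGAM, lay between 74.2 and 81.1 with ACC and between 34.2 and 46.2 in control. The 3 fibroblast markers lay between 7.71 and 13.3 with ACC and between 28.5 and 42.7 in control, and the 3 endothelial markers between 8.66 and 14.3 and between 1.92 and 4.45. The part of these differences in the results was not tested.

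The first question was whether the level of complex I mRNAs differed between cells kept in ACC and control cells. The 7 genes did not move as a unit. MT-ND1, MT-ND2 and MT-ND3 rose with log2 fold changes from 0.89 to 1.08, MT-ND4 and MT-ND4L rose with log2 fold changes of 0.30 and 0.33, and MT-ND5 and MT-ND6 had log2 fold changes of 0.17 and 0.04 that did not pass the test. The test was limma on log2(normalized count + 1), with a threshold of 0.05 after Benjamini-Hochberg adjustment over all 19318 genes tested. By this rule 5 of the 7 genes were called higher and 0 lower, and the 2 others had an unadjusted p of 0.0254 (MT-ND5) and 0.625 (MT-ND6). Over all genes tested, 21.3% were called higher and 21.9% lower. The median log2 fold change was 0.33 over the 7 genes and 0.00 (9.24e-05) over all genes. In the same 5 genes every ACC library lay above every control library, which held for 25.5% of all genes, and in 0 of the 7 did every ACC library lie below, which held for 25.9%. With the study's thresholds, which also ask for a 2-fold difference and for 30 or more reads in some library, 1 of the 7 genes, MT-ND1, was called higher, beside 2.77% of all genes. The limma test draws the spread of each gene toward that of genes of similar level. Its standard errors were smaller than those of DESeq2 on the recovered reads, 0.0671 against 0.122 for MT-ND1 and 0.0653 against 0.118 for MT-ND4. With DESeq2 the adjusted p of MT-ND4 was 0.0255.

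MT-ND1, the subunit at the ubiquinone site, had 82081, 109715 and 96718 normalized counts in ACC cultures 1, 2 and 3 and 44049.7, 44466 and 46752 in control cultures 1, 2 and 3. The control values lay close together and the ACC values were all far above them, with culture 1 the lowest and culture 2 the highest. Its mean of 45089 ± 1455 in control became 96171 ± 13825 with ACC (normalized counts ± SD, 3 libraries each). The log2 fold change was 1.08 (standard error, SE, 0.0671, limma adjusted p = 2.85e-10), or 2.12-fold. MT-ND2, an antiporter-like subunit, had 51522, 65960.1 and 56724 normalized counts with ACC and 27324, 29142 and 31387 in control. Its groups did not overlap either, and its order among the ACC cultures was that of MT-ND1. It rose 1.98-fold (log2 fold change 0.98, SE 0.0647, limma adjusted p = 6.51e-10). MT-ND3, a small subunit with a mobile loop near the ubiquinone site, had 18247, 21771 and 20396 normalized counts with ACC and 10812, 10158 and 11528 in control. Every ACC value exceeded every control value, and the gene rose 1.86-fold (log2 fold change 0.89, SE 0.0534, limma adjusted p = 1.72e-10).

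MT-ND4, the most abundant member in reads and an antiporter-like subunit, had 119236, 157126 and 136854 normalized counts with ACC and 108226, 109245 and 115674 in control. ACC culture 1 lay only slightly above control culture 3, so the groups were separate but close. Its mean rose from 111048 ± 4038 (SD) in control to 137738 ± 18960.3 with ACC (log2 fold change 0.30, SE 0.0653, limma adjusted p = 0.000958). MT-ND4L, which shares its mRNA with MT-ND4, had 14335, 18845 and 16309 normalized counts with ACC and 12738, 12722 and 13807 in control. Again ACC culture 1 was the lowest of its group and just above the controls (log2 fold change 0.33, SE 0.0655, limma adjusted p = 0.000498). The ratio of MT-ND4L to MT-ND4 lay between 0.116 and 0.120 in the 6 libraries.

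MT-ND5, the distal antiporter-like subunit, had 28414, 38323 and 33639.8 normalized counts with ACC and 30544, 28639 and 29558 in control. The groups overlapped, since ACC culture 1 lay below all controls while the other 2 lay above them. The log2 fold change was 0.17, with a 95% interval from 0.02 to 0.31 and an adjusted p of 0.0573 from limma. It passed the threshold with edgeR on the recovered reads (adjusted p = 0.0339), without ACC culture 1 (log2 fold change 0.28, limma adjusted p = 0.000278) and without control culture 1 (0.19, limma adjusted p = 0.0473), while over the alternatives run on this scale the adjusted p ranged from 0.000278 to 0.407. MT-ND6, the member read from the opposite strand, had 7792, 10859 and 9242 normalized counts with ACC and 9174, 8884 and 8889.6 in control. ACC culture 1 was the lowest of the 6 libraries and ACC culture 2 the highest, around controls that lay close together. The strand setting of the counting is not known, so these reads may include RNA of the strand opposite to MT-ND6. That limit holds for every value of MT-ND6 given here. The log2 fold change of MT-ND6 was 0.04, with a 95% interval from -0.12 to 0.19 (limma adjusted p = 0.732), and it became 0.16 without ACC culture 1 (limma adjusted p = 0.0285) and -0.08 without ACC culture 2 (limma adjusted p = 0.281).

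**Figure D1:**
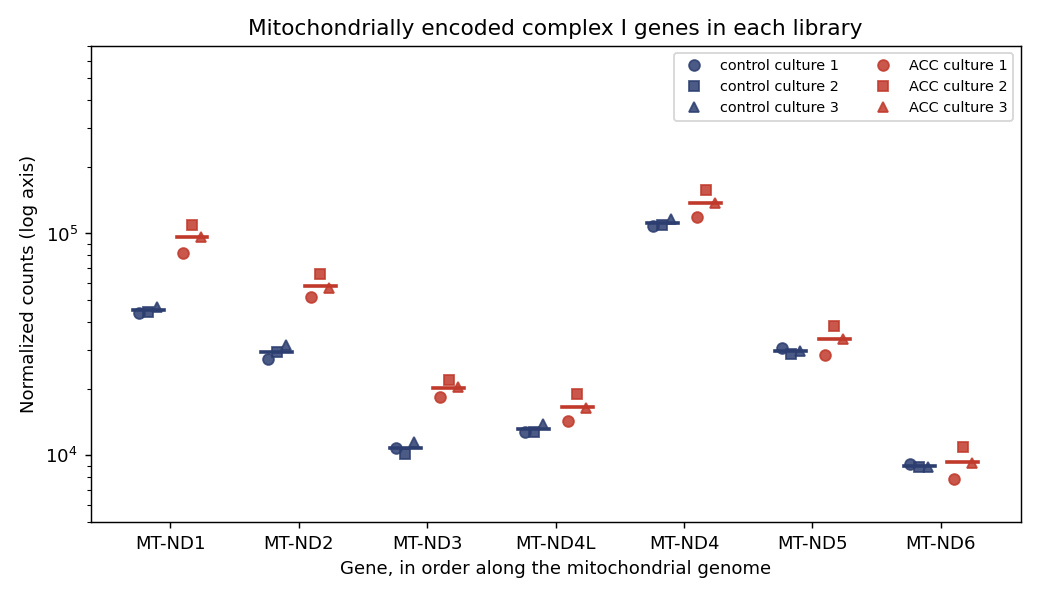
Normalized counts (log axis) of the 7 MT-ND genes in the 3 control (blue) and 3 ACC (red) libraries, each point a library and each short line a group mean. The ACC points lie above all control points for MT-ND1, MT-ND2, MT-ND3, MT-ND4L and MT-ND4, and on both sides of them for MT-ND5 and MT-ND6.

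The ACC libraries differed from each other in all members together. In bulk RNA, more mitochondrial RNA in each cell and more cells rich in it cannot be told apart. On the log2 scale, the 7 genes lay from -0.24 to -0.14 around their ACC means in ACC culture 1, from 0.12 to 0.24 in ACC culture 2 and from -0.03 to 0.02 in ACC culture 3. In the control libraries the deviations lay between -0.10 and 0.10. The share of all reads in mitochondrial genes moved with this order, at 4.39%, 5.70% and 5.04% with ACC and 4.13%, 4.04% and 4.29% in control, and its part in the differences was not tested.

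The second question was how the members stood relative to each other within a library, where a change in the total amount of mitochondrial RNA cancels out. MT-ND1, MT-ND2 and MT-ND3 together made up 47.2%, 46.7% and 47.0% of the summed MT-ND normalized counts in ACC cultures 1, 2 and 3, and 33.8%, 34.4% and 34.8% in control cultures 1, 2 and 3. MT-ND1 alone went from 18.2% ± 0.0788 of the sum in control to 25.9% ± 0.322 with ACC (SD, n = 3 each). MT-ND4 went from 44.8% ± 0.199 to 37.1% ± 0.0914 and MT-ND6 from 3.63% ± 0.165 to 2.50% ± 0.0733. The groups' shares did not overlap for any member. The ratio of MT-ND1 to MT-ND5 was 2.89, 2.86 and 2.88 with ACC and 1.44, 1.55 and 1.58 in control, although the level of MT-ND5 in ACC culture 1 was below the controls. The ratio of MT-ND6 to MT-ND5 lay between 0.274 and 0.283 with ACC and between 0.300 and 0.310 in control.

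For each member, log2(normalized count + 1) minus the mean of the other 6 was compared between the groups. This relative level was higher with ACC by 0.63 for MT-ND1, 0.51 for MT-ND2 and 0.41 for MT-ND3. It differed by -0.28 for MT-ND4, -0.25 for MT-ND4L, -0.44 for MT-ND5 and -0.59 for MT-ND6, whose reads cannot be assigned to a strand. The groups did not overlap for any of the 7, and the exact permutation test (two-sided, n = 3 each) gave p = 0.1 for every one, also after adjustment over the 7, which is the smallest p that 3 against 3 libraries can give. Since the 7 relative levels share their denominators, some must fall when others rise. When each library was instead scaled to the sum of the 13 mitochondrial mRNAs and limma was run over all genes, MT-ND1, MT-ND2 and MT-ND3 were higher relative to that sum (log2 fold changes 0.73, 0.63 and 0.54, adjusted p = 2.03e-05, 0.000159 and 0.000573) and MT-ND6 was lower (-0.32, adjusted p = 0.0447). On that scale MT-ND4, MT-ND4L and MT-ND5 had -0.05, -0.03 and -0.19, with limma adjusted p = 0.818, 0.886 and 0.297. Their standard errors were larger there, at 0.164, 0.140 and 0.147 against 0.0653, 0.0655 and 0.0685 in the main fit. These p-values therefore cannot show that the 3 genes kept their place in the sum. That scaling moved the median of all genes to a log2 fold change of -0.35, with 1071 genes called higher and 7919 lower in place of 4118 and 4240.

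**Figure D2:**
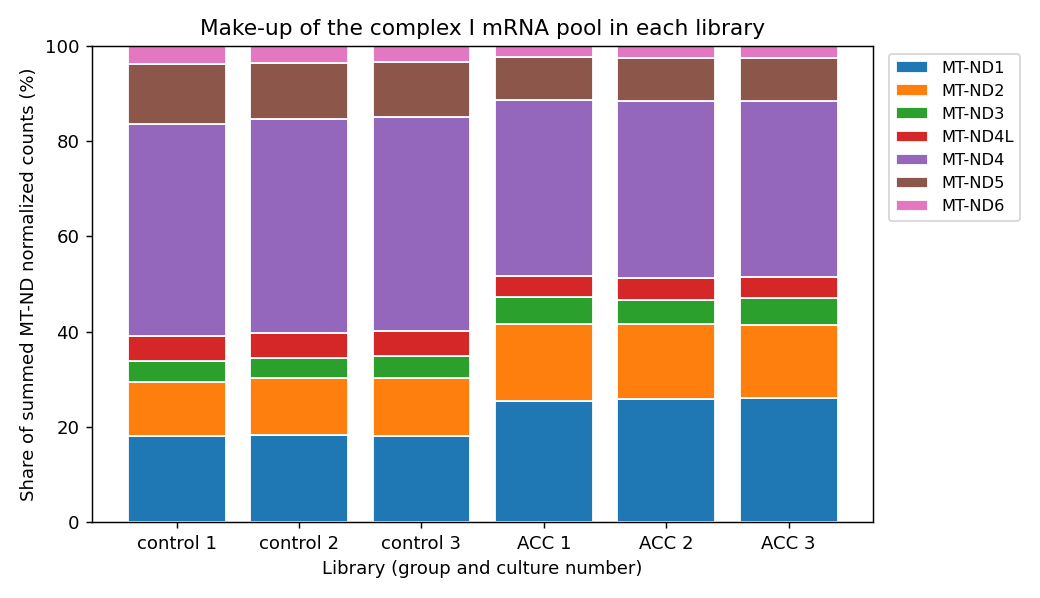
Share of the summed MT-ND normalized counts (percent) taken by each of the 7 genes in each library, as stacked bars from 0 to 100. MT-ND1, MT-ND2 and MT-ND3 make up from 33.8% to 34.8% of the sum in the controls and from 46.7% to 47.2% with ACC, and the make-up is nearly the same in all libraries of a group.

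The summed MT-ND level was 321628, 422598 and 369882 normalized counts with ACC and 242867, 243258 and 257594 in control. Every ACC library lay above every control library, by a mean log2 difference of 0.57 (exact permutation test, two-sided, p = 0.1, the smallest possible with n = 3 each). The other 6 mitochondrial mRNAs summed to 497479, 636241 and 567043 normalized counts with ACC and 479037, 470292 and 497513 in control, and these groups overlapped (mean log2 difference 0.23, exact permutation p = 0.2). The ratio of the MT-ND sum to the sum of those 6 was 0.647, 0.664 and 0.652 with ACC and 0.507, 0.517 and 0.518 in control. This log2 ratio was higher with ACC by 0.35 (exact permutation test, two-sided, p = 0.1, n = 3 each).

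Among the other mitochondrial mRNAs, MT-CYB, the cytochrome b of complex III, also rose (log2 fold change 1.03, SE 0.0649, limma adjusted p = 3.64e-10). The cytochrome oxidase gene MT-CO3 had a log2 fold change of 0.58 (limma adjusted p = 1.90e-07), and MT-ATP8 and MT-ATP6 of the ATP synthase had 0.29 and 0.26 (limma adjusted p = 0.00281 and 0.00526). MT-CO2 fell, with a log2 fold change of -0.49 (limma adjusted p = 8.85e-07), and MT-CO1 had -0.07 (limma adjusted p = 0.392). The ratio of MT-CYB to MT-ND1 lay between 0.807 and 0.861 in the 6 libraries, whereas the ratio of MT-ND1 to MT-CO2 was from 1.67 to 1.80 with ACC and from 0.574 to 0.597 in control. The other mitochondrial mRNAs thus also moved unequally, by limma 4 of the 6 higher and 1 lower, beside 21.3% and 21.9% of all genes. With DESeq2 on the recovered reads MT-ATP8 and MT-ATP6 did not pass the threshold (DESeq2 adjusted p = 0.0662 and 0.0939), whereas MT-CYB, MT-CO3 and MT-CO2 did. The groups of MT-ATP6 also overlapped.

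**Figure D3:**
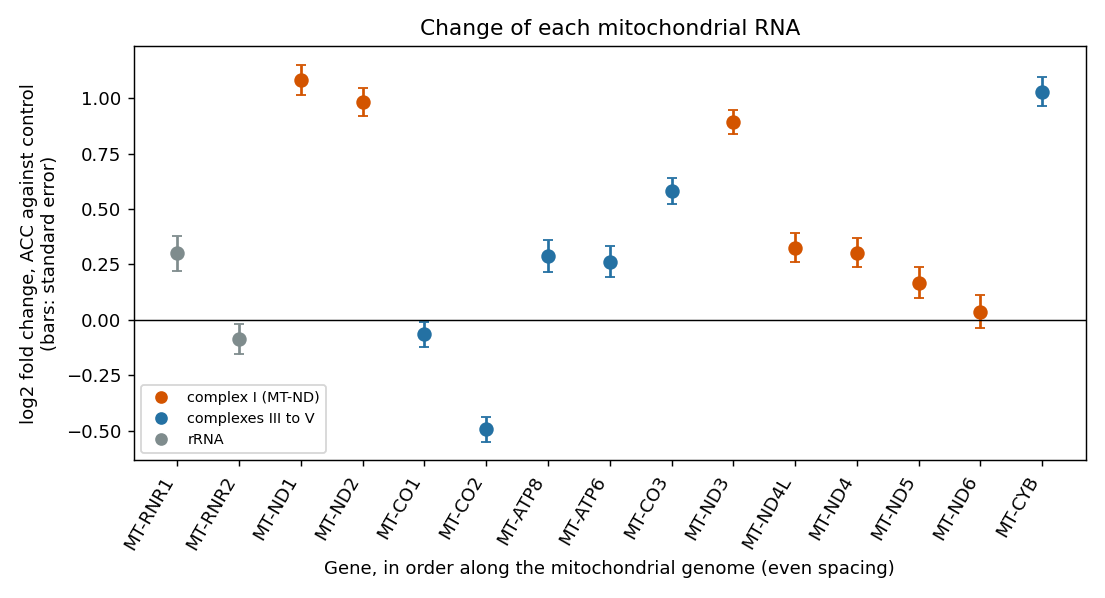
Log2 fold change (ACC against control, from limma, bars give the standard error) of the 13 mitochondrial mRNAs and 2 rRNAs in their order along the genome, evenly spaced. The complex I genes (orange) run from 1.08 for MT-ND1 to 0.04 for MT-ND6, and neighbours in the order can differ widely, as MT-ND3 (0.89) and MT-ND4L (0.33) do.

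Set against the gene ends printed above, the 4 members with an unfinished stop codon had fold changes of 2.12 (MT-ND1), 1.98 (MT-ND2), 1.86 (MT-ND3) and 1.23 (MT-ND4), and the 3 members with an encoded stop codon 1.25 (MT-ND4L), 1.12 (MT-ND5) and 1.03 (MT-ND6). Over all 13 mitochondrial mRNAs, the 6 whose annotated length leaves an unfinished stop codon (MT-ND1, MT-ND2, MT-ND3, MT-ND4, MT-CYB and MT-CO3) had fold changes from 1.23 to 2.12, with a median of 1.92. The 7 annotated with a whole stop codon had fold changes from 0.710 to 1.25, with a median of 1.12. With this annotation the ranges overlap only at MT-ND4 and MT-ND4L, which share an mRNA. The last stop codon base of MT-ATP6 (1.20) is also the first base of MT-CO3, so its place depends on where the RNA is cut. Grouped with the unfinished ones, MT-ATP6 would extend their range down to 1.20, and MT-ATP8 (1.22) would lie inside the overlap. This grouping was made after the values were seen and carries no test. The GC content was 47.7% for MT-ND1, 43.0% for MT-ND2, 40.2% for MT-ND3, 44.3% for MT-ND4, 43.1% for MT-ND4L, 44.9% for MT-ND5 and 42.7% for MT-ND6. The part of base composition in the differences was not tested. G made up 35.6% of the coding strand of MT-ND6 and from 9.50% to 12.1% of that of the other members.

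Levels of different genes can be compared only per length, here as normalized counts per kilobase of annotated gene. In control, MT-ND4 was highest at 80587 ± 2930.5 (SD, n = 3), followed by MT-ND1 (47164.5 ± 1522), MT-ND4L (44071 ± 2093), MT-ND3 (31309 ± 1979), MT-ND2 (28104 ± 1953), MT-ND6 (17109.7 ± 316) and MT-ND5 (16325 ± 526). MT-ND1 and MT-ND4L overlapped over the control libraries, as did MT-ND3 and MT-ND2. Within each control library, however, MT-ND1 lay above MT-ND4L and MT-ND3 above MT-ND2. With ACC, MT-ND1 at 100598 ± 14461 normalized counts per kilobase and MT-ND4 at 99955 ± 13759 overlapped at the top of the order. MT-ND3, MT-ND2 and MT-ND4L overlapped in the middle, between 48265 and 63451, and MT-ND5 and MT-ND6 overlapped at the bottom, between 14843 and 21149. Compared within libraries, MT-ND5 lay above MT-ND6 in every ACC library and below it in every control library. Across all 6 libraries the mean of every member, from 17395 normalized counts per kilobase for MT-ND5 to 90271 for MT-ND4, exceeded that of the highest of the 37 nuclear complex I subunits, NDUFS5, at 3729 per kilobase of merged exons, a length that lowers the values of genes with many isoforms. Levels per length also depend on the selection for poly(A) RNA, which matters most for MT-ND6. They may depend, too, on how reads that match both the mitochondrial and the nuclear genome were counted. Exact nuclear copies exist for 31.0% of read-length windows in MT-ND2, 14.4% in MT-ND1 and 3.17% in MT-ND6. The other members have 0. The lengths were not corrected for these copies, and their part in the order of the members was not tested. As no source used here gives the strand setting of the counting, reads of MT-ND6 and of RNA from the strand opposite to it cannot be told apart.

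Stretches of mitochondrial DNA copied into the nuclear genome can share reads with the members. Of the windows of 84 bases, the read length, that fit in each gene, 126 of 873 in MT-ND1 (14.4%), 297 of 959 in MT-ND2 (31.0%) and 14 of 442 in MT-ND6 (3.17%) have an exact copy on a nuclear chromosome. For MT-ND1 and MT-ND2 these copies lie on chromosome 1. MT-ND3, MT-ND4, MT-ND4L and MT-ND5 have 0 such windows, and neither has MT-CYB. MT-ND3 and MT-CYB, which have no such copy, rose with log2 fold changes of 0.89 and 1.03, beside 1.08 and 0.98 for MT-ND1 and MT-ND2. MT-ND4, MT-ND4L, MT-ND5 and MT-ATP8, also without copies, had 0.30, 0.33, 0.17 and 0.29. Copies exist for 33.2% of the windows of MT-CO1, 21.1% of MT-ATP6, 10.4% of MT-CO3 and 7.65% of MT-CO2. Their log2 fold changes were -0.07, 0.26, 0.58 and -0.49. The part of such copies in the results was not tested. The nuclear pseudogene MTND2P28 at chr1:629640-630683, which matches MT-ND2 over 98.4% of aligned bases, had 2937, 3956 and 3223 normalized counts with ACC and 1599, 1646 and 1784 in control (log2 fold change 1.00, limma adjusted p = 3.75e-09). Its ratio to MT-ND2 lay between 0.0565 and 0.0600 in the 6 libraries, and its reads and those of MT-ND2 are uncertain to the extent that mapping could exchange them.

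The lists of nuclear genes are read against the 21.3% of all tested genes called higher and the 21.9% called lower. Of the 7 nuclear core subunits of complex I, 1 was called higher and 0 lower, no more than those shares, with a median log2 fold change of -0.03. NDUFS7, an iron-sulfur subunit, had 738, 705 and 690.5 normalized counts with ACC and 663, 645 and 616 in control (log2 fold change 0.15, limma adjusted p = 0.0341), and this call was lost with DESeq2 and when ACC culture 1, ACC culture 2, control culture 2 or control culture 3 was left out. NDUFS8, an iron-sulfur subunit with the highest counts of those not called, had -0.07 (limma adjusted p = 0.144). Of the 30 accessory subunits, 2 were higher, below the 21.3% over all genes, and 6 lower, near the 21.9%, with a median of -0.02. NDUFS5, also of the membrane arm, fell from a mean of 2227 ± 18.0 (SD) in control to 1861 ± 98.0 with ACC (log2 fold change -0.26, limma adjusted p = 7.72e-05), and NDUFB3 and NDUFA1, accessory subunits of the membrane arm, fell with log2 fold changes of -0.29 and -0.17 (limma adjusted p = 0.00071 and 0.00352). NDUFB7 rose, with a log2 fold change of 0.25 (limma adjusted p = 0.000468). The second accessory subunit called higher was NDUFS4 (0.14), named after its value was seen. NDUFB4 had -0.10 (limma adjusted p = 0.0808).

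Of 16 complex I assembly factors, which build the enzyme but are not part of it, 2 were higher and 5 lower, beside 21.3% and 21.9% over all genes (median log2 fold change -0.01). NDUFAF3 rose with a log2 fold change of 0.45 (limma adjusted p = 2.04e-07). NDUFAF2, NDUFAF7 and TIMMDC1 fell with log2 fold changes of -0.43, -0.32 and -0.24 (largest limma adjusted p = 0.000425). COA1 had 0.10 (limma adjusted p = 0.0536). The other assembly factors called were NUBPL (0.20), NDUFAF8 (-0.19) and NDUFAF5 (-0.22), named after their values were seen. Among the nuclear complex I genes that were called, the largest change was that of NDUFAF3, at 0.45 on the log2 scale.

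Nuclear genes that make, process and break down mitochondrial RNA were also counted. Of 18 genes of mitochondrial transcription and mtDNA maintenance, 1 was higher and 3 lower, both below the 21.3% and 21.9% over all genes (median log2 fold change -0.08). TFAM, the factor that packages mtDNA and activates its promoters, had 1416, 1292 and 1354 normalized counts with ACC and 1779, 1783 and 1926 in control. It fell without overlap of the groups (log2 fold change -0.43, SE 0.0476, limma adjusted p = 5.76e-07). MTERF3 and the mitochondrial RNA polymerase gene POLRMT fell with -0.28 and -0.11 (limma adjusted p = 0.00255 and 0.0348), MTERF4, known for mitochondrial ribosome assembly, rose with 0.65 (limma adjusted p = 5.96e-08), and SSBP1, the single-stranded DNA-binding protein of mtDNA, had -0.08 (limma adjusted p = 0.0982).

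Of 21 genes of mitochondrial RNA processing, polyadenylation and decay, 12 were lower and 2 higher, beside 21.9% lower and 21.3% higher over all genes (median log2 fold change -0.21). REXO2, an exonuclease for very short RNAs, had 790.1, 723 and 778 normalized counts with ACC and 1337, 1355 and 1348 in control. It fell by 0.82 on the log2 scale, the largest fall of the list (SE 0.0486, limma adjusted p = 1.59e-10). ELAC2, which cuts the 3′ ends of tRNAs out of the long transcripts, and FASTKD1, an RNA-binding protein of the FASTK family, fell with log2 fold changes of -0.39 and -0.60 (limma adjusted p = 2.30e-07 and 3.16e-07). The 2 genes called higher were FASTK (0.24, limma adjusted p = 7.95e-05), the namesake of that family, known for keeping the MT-ND6 mRNA stable, and LRPPRC (0.15, limma adjusted p = 0.00779), which binds and stabilizes mitochondrial mRNAs and was named after its value was seen. SUPV3L1, the helicase of the mitochondrial RNA degradation complex, had -0.04 (limma adjusted p = 0.626).

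Of 10 regulators of mitochondrial biogenesis, 4 were higher and 0 lower, beside 21.3% and 21.9% over all genes (median log2 fold change 0.15). PPARGC1A, a coactivator known for driving nuclear genes of respiration, was scarce, at 39.13, 32.75 and 43.99 normalized counts with ACC and 7.71, 6.22 and 10.45 in control. It rose without overlap of the groups (log2 fold change 2.13, SE 0.271, limma adjusted p = 3.56e-06). The nuclear receptor genes PPARA and ESRRA rose with log2 fold changes of 0.89 and 0.49 (limma adjusted p = 2.88e-08 and 3.10e-07). The remaining gene called was NFE2L2 (0.16), named after its value was seen, and the transcription factor gene YY1 had 0.01 (limma adjusted p = 0.815).

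**Figure D4:**
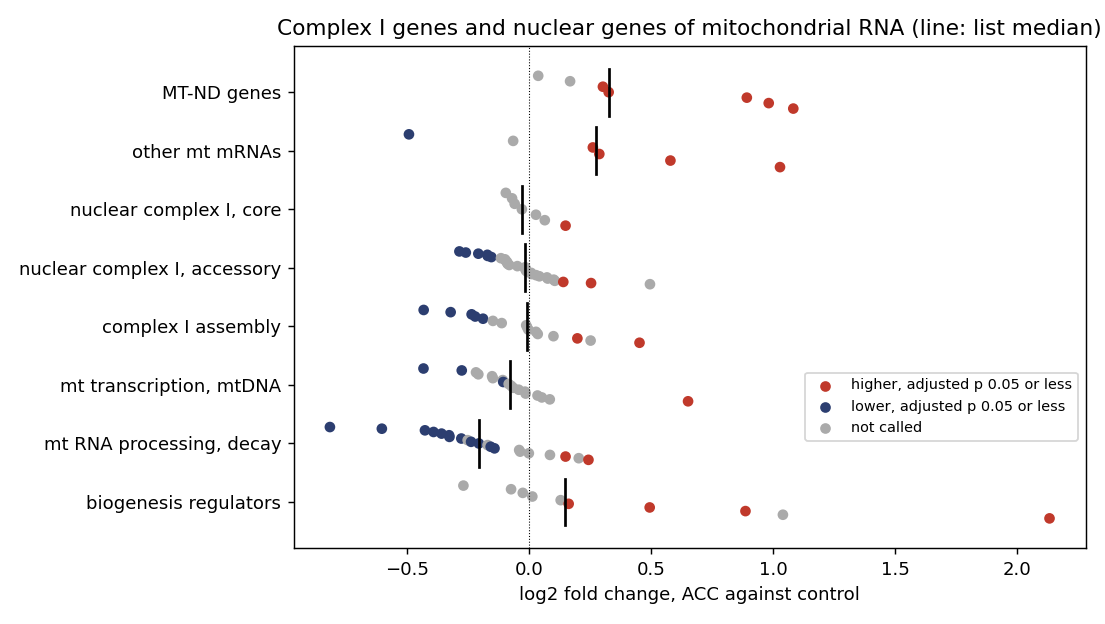
Log2 fold change (ACC against control) of every tested gene in the 8 lists, with red points called higher, blue points called lower and grey points not called by limma, and a black line at each median. The MT-ND genes have a median of 0.33, the nuclear complex I lists lie around 0 with medians from -0.03 to -0.01, and the RNA processing and decay list has a median of -0.21 with 12 of 21 genes lower, beside 21.9% of all genes.

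The profile of the summed MT-ND genes over the 6 libraries was compared with 11164 genes outside the mitochondrial genome averaging 100 normalized counts or more, by the root mean square distance between log2 profiles centred on their means. The nearest were ABCB6 (0.0616), a porphyrin transporter, TRIM14 (0.0727), an adaptor of antiviral signalling, NLRC5 (0.0745), an activator of MHC class I genes, JAK2 (0.0777), a cytokine receptor kinase, and SMARCD3 (0.0794), a chromatin remodelling subunit, against a median distance of 0.328 over all of these genes. ABCB6 had 236, 288 and 274 normalized counts with ACC and 160, 164 and 176 in control. Its order among the ACC cultures was that of the sum, which the choice by distance over these libraries favours.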

How the data were processed

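RNA-seq libraries were made by the authors from poly(A) RNA of A549 cells, 3 ACC and 3 control, and grouped here by the submitters' titles. Per the paper and the submitters' processing notes, reads were trimmed with Cutadapt, mapped to GRCh38 with STAR 2.4.2a and counted per gene with htseq-count. The deposited signal values are counts divided by DESeq2 size factors, to 2 decimals. In every library 100% of positive values were whole multiples of 1 step to within 0.1 read, so reads could be recovered. The authors' columns of fold changes and p-values were not used. The main test was limma 3.58.1 (R 4.3.3) with a trended prior variance on log2(normalized count + 1), run on the 19318 genes whose 6 values summed to 10 or more, with Benjamini-Hochberg adjustment. Fold changes are on this scale. Sums and relative levels were compared with exact permutation tests. Alternatives used edgeR 4.0.16 and DESeq2 1.42.0 on the recovered reads, among others, and edgeR called 4212 genes higher and 4143 lower. The scripts were tested on simulated data. No library was a copy of another of its group, with a chi-square per gene of 2.60 to 5.24 on average.

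The members and lists were chosen with earlier results of these data known, and the lists were written from general knowledge. Named nuclear genes are, of each list, the 3 called with the smallest adjusted p in the direction with most calls, the 1 with the smallest in the other direction and the 1 not called with the highest mean. PRORP was matched by its gene ID. Gene coordinates and lengths are those of GENCODE 44, and sequences were read from the GRCh38 reference, whose mitochondrial chromosome was compared with the gene annotation. Mitochondrial tRNA genes were not analysed here.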

Additional observations from a re-analysis of the deposited data

How the results depend on the processing

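The calls of MT-ND1, MT-ND2, MT-ND3, MT-ND4 and MT-ND4L and their direction held under each alternative scaling to TMM factors, total reads or nuclear genes, pseudocounts of 0.5 and 5, other filters, edgeR, DESeq2, the replicate block and each left-out library. Scaling to the mitochondrial mRNAs turned the median of the 7 genes to -0.028, MT-ND4 to -0.052, MT-ND4L to -0.028, MT-ND5 to -0.19 and MT-ND6 to -0.32, all relative to a sum that was itself higher with ACC. With the study's fold threshold 1 of the 7 was called. Leaving out 1 library gave from 5 to 7 members called and MT-ND6 from -0.082 (without ACC culture 2) to 0.16. The replicate numbers did not pair the libraries (correlations of deviations -0.125, 0.0787 and -0.0673 for numbers 1, 2 and 3), and with the replicate block the median was 0.33 and 5 members were called, so it changed no call of a member. DESeq2 called 0 core subunits, 1 accessory subunit and 1 assembly factor higher. Without 1 library, from 0 to 1 core subunits, from 1 to 3 accessory subunits, from 1 to 3 assembly factors and from 1 to 2 RNA processing genes were higher, and from 0 to 1 biogenesis regulators lower. The directions of the summed and relative levels held under the alternatives run. With 3 libraries a group, exact tests cannot go below p = 0.1.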

Other observations

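Other nuclear copies of mitochondrial genes and the rRNAs were read for their values only. The rRNA of the small mitochondrial ribosomal subunit, MT-RNR1, had 11249.9, 15764 and 14601 normalized counts with ACC and 11549, 10598 and 11318 in control (log2 fold change 0.30, limma adjusted p = 0.00469), and the groups overlapped. MT-RNR2, of the large subunit, had a log2 fold change of -0.09 (limma adjusted p = 0.326). The pseudogene MTATP6P1, a copy of the MT-ATP6 gene, had 13816, 18774 and 16116 normalized counts with ACC and 12755, 13849.8 and 13928 in control, with a log2 fold change of 0.25 beside 0.26 for MT-ATP6. MTCO1P12 had -0.04 beside -0.07 for MT-CO1.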
